A study of Mus musculus with 8 samples.

Results

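The insulin-like growth factor (IGF) system was described through 10 of its genes in mouse skeletal cells from the spine and from the long bones. The genes were chosen by name: the ligands Igf1 and Igf2, the receptors Igf1r and Igf2r, and the binding proteins Igfbp2, Igfbp3, Igfbp4, Igfbp5, Igfbp6 and Igfbp7. All 10 were found once each among the 22053 rows of the protein-coding table. RNA was sequenced from 4 libraries of candidate vertebral skeletal stem cells (vSSC, from spine) and from 4 libraries of long bone skeletal stem cells (lbSSC, from femur and tibia). All 8 libraries came from wild-type (WT) mice at postnatal day 10, with 2 male and 2 female libraries in each group. Both groups were sorted by one gate, which kept CD200+ cells that lacked CD105, 6C3, Thy, CD45, TER119 and CD31. The labels call the libraries of a group biological replicates, but give neither the strain nor the number of animals behind each, so that p-values cover the spread among these libraries.

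IGF ligands are secreted growth factors that act on bone and cartilage cells through Igf1r, a receptor tyrosine kinase upstream of the PI3K and AKT kinases. Igf2r, the cation-independent mannose phosphate receptor, has no such kinase and carries Igf2 to lysosomes for breakdown. The binding proteins hold IGFs outside the cell and can block or prolong their action, and proteases that cut them set the ligands free.

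Levels are given in FPKM, fragments per kilobase of transcript scaled to the library's total, so that genes of different length can be set side by side. Summed over all genes, FPKM came to 517314 to 571869 in the vSSC libraries and 460302 to 521489 in the lbSSC libraries. Transcripts of cytosolic ribosomal proteins took 18.4% to 21.5% of that sum in vSSC and 15.7% to 18.5% in lbSSC, with vSSC replicates 1 and 3 at the top. The site differences of the 10 genes and of the list genes named by rule were also fitted with adjustment for this ribosomal share. As the share nearly separates the groups, site and share are hard to tell apart in 8 libraries. A call lost in that fit is therefore no evidence that the sites are alike. The SE of the site difference rose from 0.22 to 0.33 in Igf1 and fell from 0.22 to 0.14 in Igf2r. No read totals were used, and the counting error of a single value is therefore unknown. Among the genes of the sorting gate, Cd200 lay between 85.1 and 133.1 FPKM in vSSC and between 84.2 and 142.7 FPKM in lbSSC. Ptprc, which encodes CD45, lay below 1 FPKM in every library, at 0.33 to 0.95 FPKM in vSSC and 0.025 to 0.069 FPKM in lbSSC. Enpep, which encodes 6C3, was at 0.11 to 0.48 FPKM in vSSC and 0.71 to 1.76 FPKM in lbSSC. Eng, which encodes CD105, was at 0.26 to 0.84 FPKM in vSSC and 0.81 to 1.17 FPKM in lbSSC. Thy1 and Pecam1 lay below 1 FPKM in every library. Summed neutrophil markers were at 285.7 to 440.3 FPKM in vSSC and 26.4 to 118.2 FPKM in lbSSC. Of the 6 tested, 5 were called higher in vSSC, against 14.3% of all tested genes. Summed erythroid markers were at 3817 to 5371 FPKM in vSSC and 4282 to 8823 FPKM in lbSSC. Of the 7 tested, Slc4a1 and Alas2 were called lower in vSSC, against 9.17% of all tested genes, and 0 were called higher. The part of neutrophils and erythroid cells in the results below was not tested.

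Transcripts of Igf1 and of most binding proteins were lower in vSSC. Of the 10 genes, 6 were called lower in vSSC, namely Igf1, Igfbp3, Igfbp4, Igfbp5, Igfbp6 and Igfbp7, and Igfbp2 alone was called higher. Igf2, Igf1r and Igf2r were not called. A call is a Benjamini-Hochberg adjusted p under 0.05 from limma over 10729 tested genes, and each difference, lbSSC subtracted from vSSC, is given in log2(FPKM + 1) with its SE. Adding 1 shrinks the differences of weakly expressed genes. Of all tested genes 23.5% were called, 9.17% lower and 14.3% higher in vSSC. Higher ones made up 60.9% of these calls, 49.4% after quantile normalization and 42.4% after rescaling to one sum, where the median of all genes was -0.04. All 10 genes had at least 1 FPKM in every library, so the filter on low values took none of them through one group alone. The libraries of the groups did not overlap in 8 of the 10 genes, against 25.8% of all tested genes; 7 of these, the 6 called lower and Igf2, were lower in vSSC (9.99% of all tested genes) and 1 was higher (15.8%). The median difference was -0.72 over the 10 genes and 0.08 over all tested genes. In bulk RNA, fewer cells of a type and less RNA per cell cannot be told apart.

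**Figure D1:**
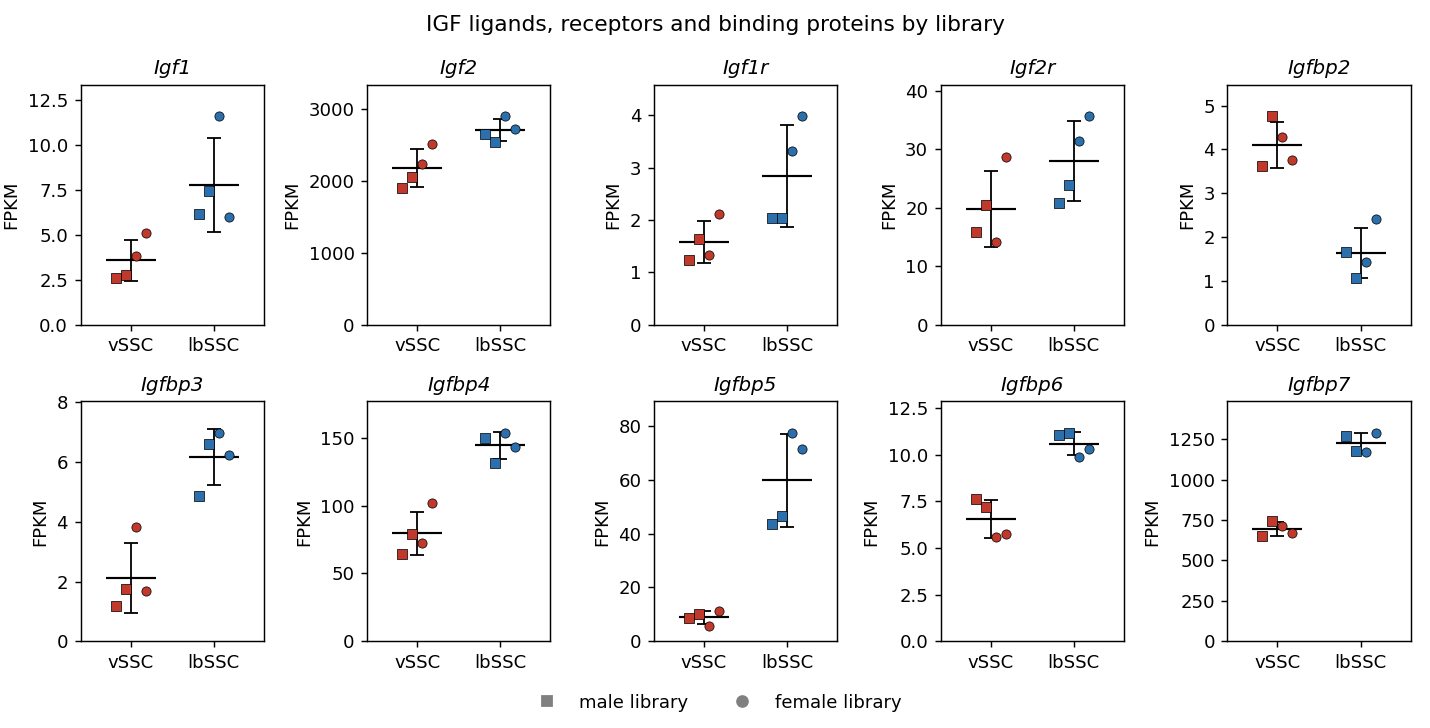
FPKM of the 10 IGF genes in each library, with vSSC in red and lbSSC in blue, squares for male and circles for female libraries, and lines for the mean and SD of 4 libraries. All vSSC points lie below all lbSSC points except in Igf1r and Igf2r, where the groups overlap, and in Igfbp2, where vSSC lies above.

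Igf2 was by far the more abundant ligand at both sites. Its level was 1894, 2048, 2235 and 2514 FPKM in vSSC replicates 1 to 4, against 2651, 2538, 2894 and 2715 FPKM in lbSSC replicates 1 to 4. Every vSSC library lay below every lbSSC library, but the gap between the nearest libraries was small. Among all genes of a library, Igf2 ranked between 16 and 32 in vSSC and between 11 and 18 in lbSSC. The difference of -0.32 ± 0.13 was not called (adjusted p = 0.0868), with a 95% interval from -0.59 to -0.04. It was called after median-of-ratios scaling (-0.40, adjusted p = 0.0436), quantile normalization (-0.44, adjusted p = 0.0335) and rescaling to one sum (-0.47, adjusted p = 0.0244). The same held when vSSC replicate 4 was left out (-0.39, adjusted p = 0.0417). In the mouse Igf2 is imprinted and expressed from the paternal allele, and the table does not separate alleles. Igf2 overlaps Gm49394, Mir483 and the antisense Igf2os in the annotation, and the library chemistry does not mark the strand, so its reads cannot be told apart from theirs.

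Igf1, the ligand that growth hormone induces in many tissues, fell in vSSC. It had 2.62, 2.77, 3.83 and 5.09 FPKM in vSSC, against 6.12, 7.43, 11.6 and 5.96 FPKM in lbSSC. The groups did not overlap, and lbSSC replicate 3 stood highest. The difference was -0.93 ± 0.22 (adjusted p = 0.0126). The call was lost without both vSSC replicates 1 and 3 (-0.83, adjusted p = 0.0829). It was also lost after adjustment for the ribosomal share (-0.54, adjusted p = 0.476) and in the female libraries alone (-0.79, adjusted p = 0.139). The ratio of Igf2 to Igf1 in FPKM lay between 494.1 and 738.8 in vSSC and between 249.8 and 455.8 in lbSSC. Macrophages also express Igf1, and the summed macrophage markers were at 10.9 to 24.4 FPKM in vSSC and 4.61 to 8.96 FPKM in lbSSC. Lyz2, which neutrophils also express, made up most of that sum, and the other 7 markers, Csf1r among them, were below 1 FPKM in every library. The part of macrophages in the Igf1 result was not tested. The antisense Igf1os overlaps Igf1.

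Both receptors were low next to their ligand Igf2. Igf1r, the signalling receptor, had 1.23, 1.64, 1.33 and 2.12 FPKM in vSSC, against 2.03, 2.04, 3.31 and 3.98 FPKM in lbSSC. Igf2r had 15.9, 20.4, 14.1 and 28.7 FPKM in vSSC, against 20.8, 23.8, 31.4 and 35.6 FPKM in lbSSC. In both genes vSSC replicate 4 reached into the lbSSC range, and vSSC replicates 1 and 3 were the lowest of the 8 libraries. Igf1r differed by -0.55 ± 0.20 (adjusted p = 0.0651; 95% interval -0.99 to -0.12) and Igf2r by -0.50 ± 0.22 (adjusted p = 0.118; 95% interval -0.98 to -0.02). Without vSSC replicate 4, the library with the lowest ribosomal protein share among the vSSC libraries, Igf1r was called at -0.65 (adjusted p = 0.0425) and Igf2r at -0.69 (adjusted p = 0.0243), and all 10 genes were then called, 1 higher and 9 lower. Igf1r was also called without lbSSC replicate 1 (-0.65, adjusted p = 0.0482) and with sex as a covariate (-0.55, adjusted p = 0.0372). After adjustment for the ribosomal share both differences turned positive, at 0.059 for Igf1r (adjusted p = 0.933) and 0.34 for Igf2r (adjusted p = 0.247). The ratio of Igf2r to Igf1r in FPKM was 12.4 ± 1.26 in vSSC and 10.1 ± 1.19 in lbSSC (SD, n = 4 each), and its library values overlapped. Igf2r overlaps the antisense Airn.

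Among the binding proteins 5 of 6 fell in vSSC, and Igfbp5 showed the widest gap. Igfbp5, which binds to bone matrix and is cut by the protease Pappa2, had 8.52, 10.1, 5.58 and 11.2 FPKM in vSSC, against 43.6, 46.5, 77.5 and 71.6 FPKM in lbSSC. The highest vSSC library stood far below the lowest lbSSC library. The mean in lbSSC was 6.76 times that in vSSC, and the difference of -2.62 ± 0.23 (adjusted p = 1.71e-05) was called in all 23 alternatives run, with differences from -3.08 to -1.80. The value nearest to 0 was that after adjustment for the ribosomal share (-1.80, adjusted p = 0.000382).

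Igfbp2, whose protein carries an integrin-binding motif, went the other way. It had 3.61, 4.76, 4.29 and 3.77 FPKM in vSSC, against 1.66, 1.07, 1.43 and 2.42 FPKM in lbSSC. All vSSC libraries were above all lbSSC libraries, at low levels throughout. The difference was 0.97 ± 0.17 (adjusted p = 0.00272), and it remained called after adjustment for the ribosomal share (1.13, adjusted p = 0.0380).

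These genes of opposite direction are neighbours in the genome. On GRCm38, Igfbp2 lies on the forward strand of chromosome 1 at 72824503 to 72852474 and Igfbp5 on the reverse strand at 72857932 to 72874884, so that their ends face each other with 5457 bases between them. The ratio of Igfbp5 to Igfbp2 in FPKM was 2.36, 2.13, 1.30 and 2.97 in vSSC, against 26.3, 43.5, 54.2 and 29.6 in lbSSC. The other neighbouring pair, Igfbp1 and Igfbp3 on chromosome 11, has the same arrangement with 3539 bases between the ends, and Igfbp1 was listed at 0 in all 8 libraries. The 250 bases before the first listed RefSeq start of Igfbp2 (chr1:72824230-72824479, forward strand) and Igfbp5 (chr1:72874866-72875115, reverse strand) are shown to set the promoters of the neighbours side by side, from RefSeq on GRCm38.p6 and 5′ to 3′ along each gene. Capitals mark GGGCGG, the letters of a GC box.
Igfbp2: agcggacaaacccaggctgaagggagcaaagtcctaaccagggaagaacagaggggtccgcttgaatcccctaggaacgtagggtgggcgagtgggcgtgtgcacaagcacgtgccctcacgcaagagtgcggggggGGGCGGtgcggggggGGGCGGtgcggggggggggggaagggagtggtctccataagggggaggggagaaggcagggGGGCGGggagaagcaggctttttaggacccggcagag
Igfbp5: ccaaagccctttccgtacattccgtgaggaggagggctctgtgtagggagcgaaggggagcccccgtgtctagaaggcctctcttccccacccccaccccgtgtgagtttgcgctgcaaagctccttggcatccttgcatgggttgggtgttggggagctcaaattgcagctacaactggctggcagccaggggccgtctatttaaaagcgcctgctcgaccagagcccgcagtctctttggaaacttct
The Igfbp2 window holds GGGCGG at 3 places, beginning 113, 98 and 37 bases before the start, and has 67.2% G and C. The Igfbp5 window holds none on either strand and has 58.8% G and C, where the median of all windows is 52.4%. On either strand GGGCGG stands in 32.7% of the 32851 windows of this length in the table, and in 4 of the 10 IGF genes at their first listed start (Igf1r, Igf2r, Igfbp2 and Igfbp7). TATAAA stands in 12.4% of all windows and in those of Igfbp4 and Igfbp6, and CCAAT in 33.8% and in those of Igf1 and Igfbp6. GTAAACA, letters bound by FOXO factors, stands in 3.17% of all windows and in 0 of the 10. These searches describe letters only, and no binding was measured.

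Igfbp3, the main carrier of IGFs in blood, fell in vSSC. It had 1.19, 1.74, 3.83 and 1.68 FPKM in vSSC, against 4.86, 6.61, 6.98 and 6.24 FPKM in lbSSC. Within vSSC, replicate 3 was above the other 3 libraries, and it was still below all of lbSSC. The difference was -1.26 ± 0.23 (adjusted p = 0.00256), and it was -1.32 with adjusted p = 0.0726 after adjustment for the ribosomal share.

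Igfbp4, which mostly restrains IGF action and is cut by the protease Pappa, fell as well. It had 64.6, 79.0, 72.6 and 101.7 FPKM in vSSC, against 149.6, 131.2, 153.7 and 142.9 FPKM in lbSSC. The vSSC libraries averaged 79.5 ± 15.9 FPKM and the lbSSC libraries 144.3 ± 9.82 FPKM (SD, n = 4 each), without overlap. The difference of -0.87 ± 0.13 (adjusted p = 0.00100) was -0.55 with adjusted p = 0.0783 after adjustment for the ribosomal share.

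Igfbp6, which prefers Igf2 to Igf1 as its ligand, was at 7.65, 7.21, 5.61 and 5.76 FPKM in vSSC, against 11.1, 11.2, 9.86 and 10.3 FPKM in lbSSC. The groups were apart, and in each of them the male libraries were above the female ones. It fell by 0.63 ± 0.13 on the log2 scale (adjusted p = 0.00650). After adjustment for the ribosomal share the difference was -0.75 (adjusted p = 0.0527).

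Igfbp7, a relative that binds IGFs only weakly, was the most abundant of the 6. It had 650.9, 744.7, 711.9 and 671.6 FPKM in vSSC, against 1266, 1175, 1169 and 1289 FPKM in lbSSC. It varied least of the 10 genes within vSSC and within lbSSC, with coefficients of variation of 6.02% and 5.05%. The difference was -0.82 ± 0.10 (adjusted p = 0.000242), and -0.81 (adjusted p = 0.00219) after adjustment for the ribosomal share. Igfbp7 overlaps the antisense Gm34648 and, on the other strand, Polr2b, a subunit gene of RNA polymerase with a mean ± SD of 21.3 ± 3.58 FPKM in vSSC against 16.4 ± 1.38 FPKM in lbSSC.

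Some other cell type markers moved in the same direction as these binding proteins, and others did not. For comparison with the counts below, 9.17% of all tested genes were called lower and 14.3% higher in vSSC. Summed osteoblast markers were at 1275 to 1341 FPKM in vSSC and 4074 to 6060 FPKM in lbSSC. Col1a1 alone was at 623 to 788 FPKM in vSSC and 3636 to 5344 FPKM in lbSSC. Of the 8 tested Bglap, Col1a1 and Dmp1 were called lower and Sp7, an early osteoblast factor, higher in vSSC. Bglap2, Ibsp, Runx2 and Alpl were not called. Summed pericyte and marrow stroma markers were at 23.2 to 32.8 FPKM in vSSC and 44.7 to 70.7 FPKM in lbSSC. Of 6 tested, 3 were called lower, namely Cxcl12 (-1.42 ± 0.22, adjusted p = 0.00108), Pdgfrb and Adipoq. Adipoq did not reach 1 FPKM in every vSSC library, so it passed the filter on low values through lbSSC. Summed tendon markers were at 1421 to 2154 FPKM in vSSC and 1935 to 3246 FPKM in lbSSC, and these ranges overlapped. Fmod alone was at 1336 to 2064 FPKM in vSSC and 1815 to 3117 FPKM in lbSSC. Of the 6 tendon markers 3 were called lower (Tnmd, Kera and Fmod), and Scx, Mkx and Thbs4 were not called. Kera was below 1 FPKM in every vSSC library and so was tested through lbSSC alone. Summed chondrocyte markers overlapped, at 16360 to 26380 FPKM in vSSC and 17725 to 27873 FPKM in lbSSC, with 2 of 8 called higher. No marker of these 4 lists was at 0 in all libraries. Among haematopoietic markers 3 of 4 tested were called higher in vSSC and 0 lower, and among Schwann markers 2 of 3 and 0. The 1 tested skeletal muscle marker, Tnnt3, was also called higher. The part of such cells in the IGF results was not tested.

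**Figure D2:**
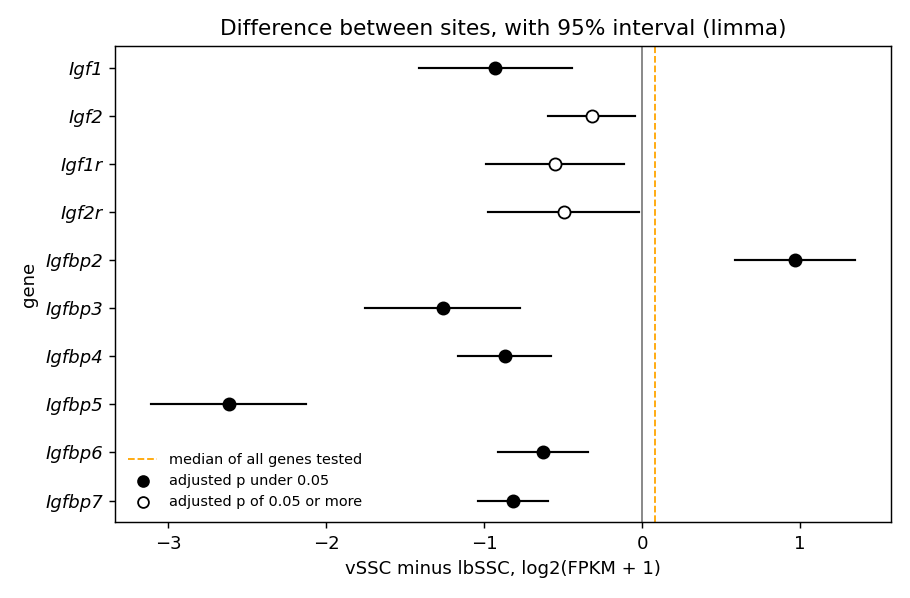
Difference between vSSC and lbSSC on the log2(FPKM + 1) scale for each gene, with its 95% interval from limma, filled where the adjusted p was under 0.05. Igfbp5 stands farthest to the left at -2.62 and Igfbp2 is the one gene to the right of 0, at 0.97.

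The order of the levels differed between the sites in the place of Igfbp5 and Igfbp2. In vSSC the mean FPKM ran from Igf2 through Igfbp7, Igfbp4, Igf2r, Igfbp5, Igfbp6, Igfbp2, Igf1 and Igfbp3 to Igf1r. In lbSSC it ran from Igf2 through Igfbp7, Igfbp4, Igfbp5, Igf2r, Igfbp6, Igf1, Igfbp3 and Igf1r to Igfbp2. Igfbp5 was thus below Igf2r in every vSSC library and above it in every lbSSC library. Neighbours whose library ranges overlapped were Igfbp5 and Igfbp6, Igfbp2 and Igf1, Igf1 and Igfbp3, and Igfbp3 and Igf1r in vSSC, and Igfbp6 and Igf1, Igf1 and Igfbp3, and Igf1r and Igfbp2 in lbSSC.

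The binding proteins together summed to 795.9 ± 45.6 FPKM in vSSC and 1447 ± 66.2 FPKM in lbSSC (SD, n = 4 each). Igfbp7 made up 87.3% ± 1.96 of that sum in vSSC and 84.6% ± 1.55 in lbSSC, and its library values overlapped. The other 5 summed to 101.1 ± 16.9 FPKM in vSSC and 222.6 ± 23.5 FPKM in lbSSC, and their mix differed. Igfbp4 made up 78.3% ± 2.81 of these 5 in vSSC and 65.1% ± 4.64 in lbSSC. Igfbp5 made up 8.72% ± 1.81 in vSSC and 26.5% ± 5.17 in lbSSC, with no overlap between the groups. Igfbp2 made up 4.14% ± 0.76 in vSSC and 0.73% ± 0.23 in lbSSC. These shares are formed within a library, so a scaling of the whole library leaves them as they are. They are given as a description, with no test.

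**Figure D3:**
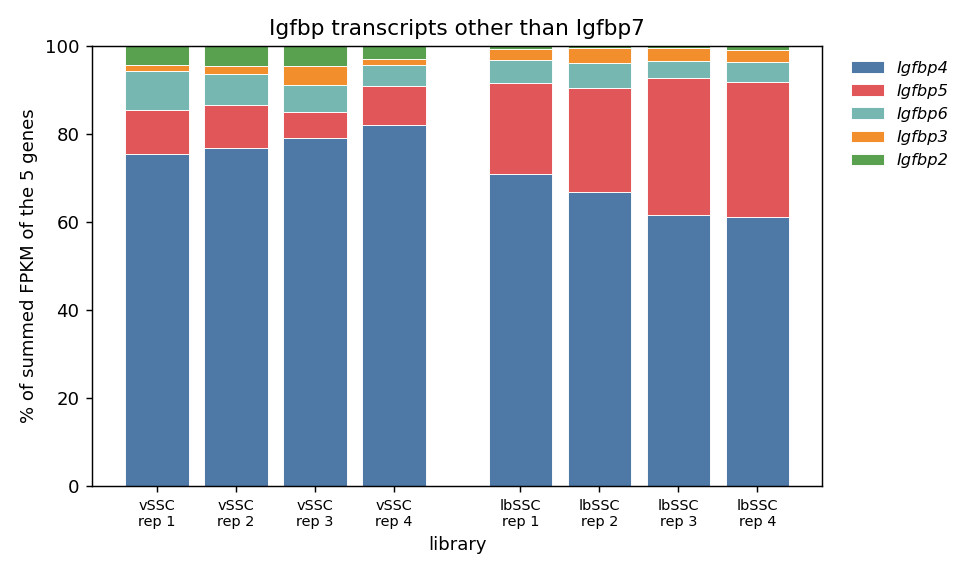
Share of each gene in the summed FPKM of Igfbp2, Igfbp3, Igfbp4, Igfbp5 and Igfbp6, as stacked bars for each library. Igfbp5 takes between 6.07% and 9.95% in the vSSC libraries and between 20.7% and 31.1% in the lbSSC libraries.

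No difference between males and females passed the test in the 10 genes. In the comparison of male with female libraries with site as a covariate, 0 of the 10 were called by limma, and 1 had an unadjusted p under 0.05, Igf1r with -0.38 ± 0.17 (adjusted p = 0.600). Over all genes 0.0466% were called. The smallest adjusted p among the 10 was that of Igf1r, and 95% intervals of the other 9 included 0. The interaction of site and sex was called for 0 of the 10, and for 0% of all genes, where 405 had an unadjusted p under 0.05. Igfbp5 had the smallest p for the interaction, which was 0.91 ± 0.36 (unadjusted p = 0.0302, adjusted p = 0.981, limma). Igfbp5 averaged 9.32 FPKM in male vSSC against 45.1 FPKM in male lbSSC, and 8.39 FPKM in female vSSC against 74.6 FPKM in female lbSSC. The site difference was -2.16 in the male libraries alone (adjusted p = 0.00118) and -3.08 in the female libraries alone (adjusted p = 0.00102).

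Among the proteases that cut the binding proteins and the regulators of those proteases, 7 of 15 tested genes were called lower in vSSC (9.17% of all tested genes) and 1 higher (14.3%), and 7 were not called. The median difference was -0.33. Of the 7 called lower, Stc1, Pappa, Adam12 and Pappa2 did not reach 1 FPKM in every vSSC library. They therefore passed the filter on low values through lbSSC. Pappa2, a metalloprotease that cuts Igfbp3 and Igfbp5, had 0.60, 1.29, 1.01 and 1.53 FPKM in vSSC, against 6.91, 9.54, 9.41 and 8.22 FPKM in lbSSC. The groups were far apart. The difference was -2.19 ± 0.17 (adjusted p = 9.51e-06), and it was called in all 23 alternatives. Stc1, a secreted inhibitor of these proteases, had 0.49, 0.14, 0.097 and 0.26 FPKM in vSSC, against 2.68, 2.93, 7.30 and 4.95 FPKM in lbSSC. It was below 1 FPKM in every vSSC library and so was tested through lbSSC alone (-2.06 ± 0.25, adjusted p = 0.000182). Plat, the tissue plasminogen activator, differed by -1.03 ± 0.17 (adjusted p = 0.00167), Adam12, a metalloprotease that cuts Igfbp3 and Igfbp5, by -1.05 ± 0.22 (adjusted p = 0.00597), and Ctsd, the lysosomal protease cathepsin D, by -0.61 ± 0.09 (adjusted p = 0.000989). The call of Adam12 was lost after adjustment for the ribosomal share (-0.44, adjusted p = 0.456), in the male libraries alone (-0.72, adjusted p = 0.221) and when vSSC replicates 1 and 3 were both left out (-0.72, adjusted p = 0.0524). The call of Plat was lost in the male libraries alone (adjusted p = 0.0637) and that of Ctsd in the female libraries alone (adjusted p = 0.119).

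Pappa, the relative of Pappa2 that cuts Igfbp4, and Stc2, its covalent inhibitor, were named after their values were seen. Pappa had 1.05, 0.72, 0.40 and 0.62 FPKM in vSSC, against 1.35, 1.37, 2.05 and 1.64 FPKM in lbSSC (-0.62 ± 0.17, adjusted p = 0.0244). It reached 1 FPKM in 1 vSSC library, so that it was tested through lbSSC. Stc2 had 6.20, 5.72, 6.15 and 5.63 FPKM in vSSC, against 3.78, 4.18, 3.62 and 4.02 FPKM in lbSSC (0.50 ± 0.12, adjusted p = 0.0137). The 2 stanniocalcins thus ran in opposite directions, each with groups that did not overlap.

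**Figure D4:**
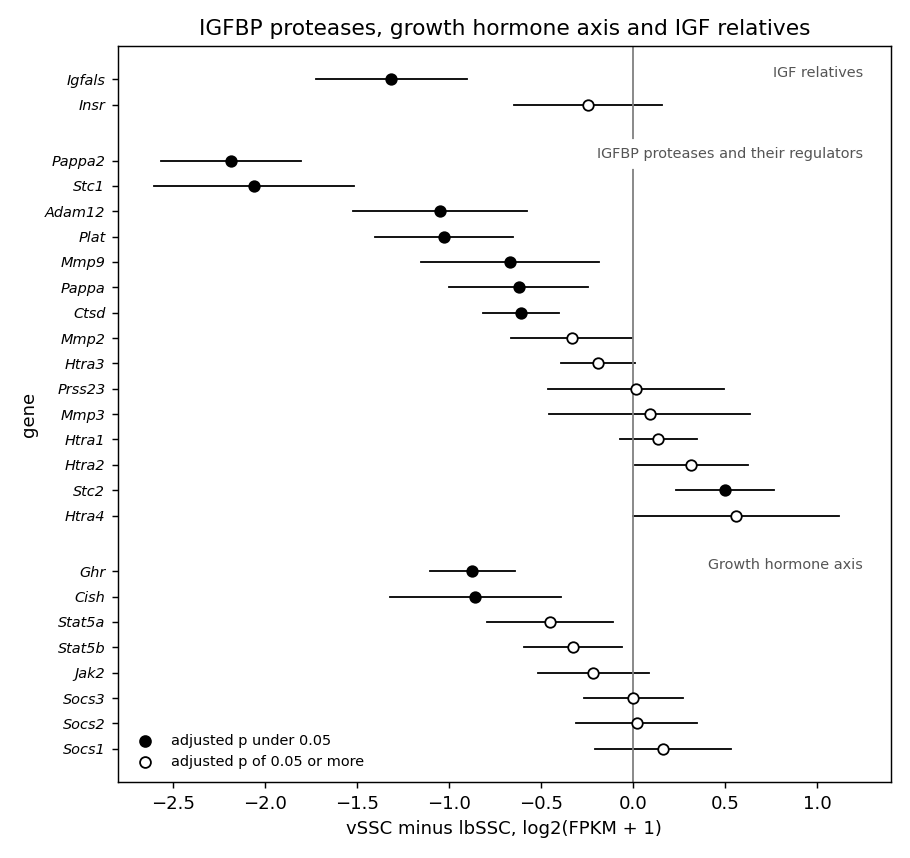
Difference between vSSC and lbSSC on the log2(FPKM + 1) scale, with 95% intervals from limma, for the tested genes of 3 lists, filled where the adjusted p was under 0.05. Pappa2 (-2.19) and Stc1 (-2.06) lie farthest to the left, and Stc2 (0.50) is the one called gene on the right.

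Growth hormone acts through Ghr, which signals by Jak2 and Stat5 to induce Igf1. Of 8 tested genes of this axis 2 were called, both lower in vSSC (9.17% of all tested genes), with a median of -0.27. Ghr had 21.6, 22.6, 23.8 and 22.4 FPKM in vSSC, against 41.1, 38.1, 41.6 and 48.4 FPKM in lbSSC. The groups were well apart and vSSC varied little. The difference was -0.87 ± 0.11 (adjusted p = 0.000182), and it was called in all 23 alternatives. Cish, a feedback inhibitor induced by Stat5, differed by -0.86 ± 0.21 (adjusted p = 0.0151), a call lost without lbSSC replicate 4 (-0.72, adjusted p = 0.0503), after adjustment for the ribosomal share (-0.73, adjusted p = 0.328) and in the male libraries alone (-0.57, adjusted p = 0.322). Socs2, another inhibitor of growth hormone signalling, was at 9.68 to 16.6 FPKM in vSSC and 11.7 to 14.0 FPKM in lbSSC (0.02 ± 0.15, adjusted p = 0.938; 95% interval -0.31 to 0.35). Of 7 IGF relatives outside the 10 genes, 2 passed the filter on low values, Igfals and the insulin receptor gene Insr (-0.24, not called). Igfals, the acid-labile subunit that joins Igfbp3 and Igfbp5 in the circulating complex, had 1.39, 1.35, 1.39 and 2.58 FPKM in vSSC, against 4.01, 6.17, 5.81 and 6.48 FPKM in lbSSC (-1.31 ± 0.19, adjusted p = 0.000604). That call was lost after adjustment for the ribosomal share (-0.87, adjusted p = 0.0759).

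Inside the cell, 2 of 24 tested adaptor and PI3K-AKT genes were called higher in vSSC (14.3% of all tested genes) and 4 lower (9.17%). The median was -0.11. Grb14, an adaptor that inhibits the insulin receptor, had 31.1, 24.4, 29.5 and 26.6 FPKM in vSSC, against 14.0, 14.1, 12.3 and 10.4 FPKM in lbSSC (1.08 ± 0.13, adjusted p = 0.000170). Gab1, a docking protein downstream of growth factor receptors, had 4.98, 5.72, 5.15 and 6.78 FPKM in vSSC, against 10.5, 13.01, 15.5 and 14.3 FPKM in lbSSC (-1.10 ± 0.15, adjusted p = 0.000358). Pik3r1, the main regulatory subunit of PI3K, had 3.93, 4.12, 3.75 and 4.35 FPKM in vSSC, against 8.77, 9.13, 10.7 and 8.99 FPKM in lbSSC (-1.04 ± 0.12, adjusted p = 0.000164). The groups did not overlap in these 3 genes, and each was called in all 23 alternatives. Akt2 differed by -0.39 ± 0.11 (adjusted p = 0.0249), a call lost in 8 of 23 alternatives. These were the removal of vSSC replicate 1 (adjusted p = 0.0642), vSSC replicate 2 (0.0701), lbSSC replicate 2 (0.0553), lbSSC replicate 3 (0.0823) or vSSC replicates 1 and 3 together (0.131), the adjustment for the ribosomal share (0.245), and the male (0.0776) or female (0.385) libraries alone. The substrates Irs1 and Irs2, which link Igf1r to PI3K, differed by 0.23 ± 0.23 (adjusted p = 0.487) and -0.35 ± 0.35 (adjusted p = 0.497), and their groups overlapped.

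In the list of TSC, mTOR and FOXO genes 1 of 20 tested was called higher (14.3% of all tested genes) and 2 lower (9.17%). The median was -0.09. Foxo3, a transcription factor that AKT restrains, had 6.66, 8.37, 7.07 and 10.1 FPKM in vSSC, against 13.4, 12.4, 14.2 and 16.5 FPKM in lbSSC (-0.75 ± 0.15, adjusted p = 0.00456). Sesn3, a FOXO target and mTOR inhibitor, had 10.02, 11.6, 11.2 and 14.8 FPKM in vSSC, against 16.7, 18.3, 17.9 and 17.3 FPKM in lbSSC (-0.54 ± 0.13, adjusted p = 0.0123). Both calls were lost after adjustment for the ribosomal share (adjusted p = 0.331 and 0.426) and in either sex alone, and that of Sesn3 also without both vSSC replicates 1 and 3 (adjusted p = 0.109). Ddit4, an inhibitor of mTOR, differed by 0.49 ± 0.16 (adjusted p = 0.0445), and its call was lost in 14 of 23 alternatives, among them the 3 other scalings and the single removal of vSSC replicate 1, 2 or 3 or lbSSC replicate 3 or 4 (adjusted p up to 0.13). Of 6 tested genes that bind IGF mRNAs or regulate Igf2 transcription, 1 was called and lower, against 9.17% of all tested genes (median -0.23). It was Plagl1, an imprinted zinc finger factor (-0.65 ± 0.22, adjusted p = 0.0484). Its call was lost in 15 of 23 alternatives, among them the removal of vSSC replicate 1, 2 or 3 or lbSSC replicate 2, 3 or 4 (adjusted p up to 0.137). Of 13 genes for lysosomal sorting of Igf2r and its cargo 3 were called higher in vSSC, against 14.3% of all tested genes, and 0 lower, with 10 not called (median 0.13, against 0.08 over all tested genes). The called genes were Snx2 with 0.60 ± 0.13 (adjusted p = 0.00893), Ap1m1 with 0.43 ± 0.12 (adjusted p = 0.0281) and Vps35, a retromer subunit, with 0.42 ± 0.13 (adjusted p = 0.0414). The count of 3 was 1 without vSSC replicate 1 or 2 or lbSSC replicate 3 or 4, and 4 without vSSC replicate 4. The call of Ap1m1 was lost in 10 of 23 alternatives, with vSSC replicate 1 or 2 or lbSSC replicate 3 or 4 removed among them (adjusted p up to 0.0729). That of Vps35 was lost in 15, with vSSC replicate 1, 2 or 3 or lbSSC replicate 2, 3 or 4 removed among them (adjusted p up to 0.109). The call of Snx2 was lost in 4, after adjustment for the ribosomal share (adjusted p = 0.431), without both vSSC replicates 1 and 3 (0.0916) and in either sex alone. Over all 7 lists 7 of 88 tested genes were called higher (14.3% of all tested genes) and 17 lower (9.17%).

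The genes whose levels followed those of an IGF gene most closely over the 8 libraries were found by the smallest root mean square difference between log2(FPKM + 1) profiles, each centred on its mean, among 10728 genes. For Igfbp5 they were Igsf10 (0.22), Lrba (0.28) and Hs6st2 (0.29), where the median gene stood at 1.42. For Igfbp3 they were Zcchc12 (0.17), Moxd1 (0.20) and Car11 (0.22), against a median of 0.78. For Igf1 they were Cyp26a1 (0.16), Fcgr3 (0.17) and Tnfsfm13 (0.17), against a median of 0.64, and for Igf2 Atf5 (0.06), N4bp2l1 (0.07) and Maged1 (0.07), against a median of 0.35. Of these nearest genes, Igsf10, Zcchc12, Cyp26a1 and Fcgr3 did not reach 1 FPKM in every vSSC library. They thus passed the filter on low values through lbSSC. The site difference makes up much of each such profile, so likeness of this kind is shared by many genes called in the same direction.

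On GRCm38 the other IGF genes lie on chromosome 10 at 87858265 to 87937042 (Igf1), chromosome 7 at 142650766 to 142666816 (Igf2) and 67952827 to 68233668 (Igf1r), chromosome 17 at 12682406 to 12769664 (Igf2r), chromosome 11 at 7206086 to 7213923 (Igfbp3) and 99041244 to 99054392 (Igfbp4), chromosome 15 at 102144362 to 102149511 (Igfbp6) and chromosome 5 at 77349240 to 77408041 (Igfbp7).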

How the data were processed

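FPKM per protein-coding gene were deposited by the authors in one table. Per the labels' protocols, the cDNA came from the SMART-Seq v4 kit and the libraries from Nextera XT. This chemistry does not mark the strand. The submitters' processing notes name GRCm38 as the build and list Cufflinks 2.1.1, STAR 2.5.2 and bcl2fastq 2.19, without their settings. FPKM is relative within a library: where abundant genes gain, all others lose. Of the 22053 rows, 46 repeat an identifier, and 40, none of them an IGF gene described here, have a low-data status; all were kept. No 2 libraries held identical values. Steps of single fragments were sought in the ratios of low values between libraries; at most 0.584% of low genes shared one ratio, so depth was not recovered.

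Values were transformed to log2(FPKM + 1), and the 10729 rows that reached 1 FPKM in 4 or more libraries were tested with limma 3.58.1 in R 4.3.3 (moderated variances with a trend on the mean level). The site fit had no covariate, the sex fit had site, and the interaction fit had both. The fitting was tested on simulated data. In each of 7 lists of related genes, up to 4 called genes with the smallest p and those called with a difference of at least 1 were named. The genes and lists were chosen with earlier results of these data known, so they are no independent support. Alternatives were other pseudocounts, filters, scalings, weights, covariates, a replicate block, single sexes and libraries left out. Coordinates are 1-based, from the file with 1 added to each start, and match GENCODE M21.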

Additional observations from a re-analysis of the deposited data

Results flagged for a closer look

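Igfals stood out among the vSSC libraries. It was at 2.58 FPKM in vSSC replicate 4, while the other 3 vSSC libraries lay between 1.35 and 1.39 FPKM, and all lbSSC libraries were higher, from 4.01 FPKM. The gap to the nearest library made up 96.5% of the range of the vSSC libraries, past the limit of Dixon's test for 4 values. It was the single such case among 58 sets of 4 libraries checked, where chance alone flags about 1 in 20 sets. Without vSSC replicate 4 Igfals differed by -1.46 (adjusted p = 0.000285, limma), and over the 22 alternatives in which Igfals was tested the adjusted p ran from 0.000285 to 0.0759.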

How the results depend on the processing

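Of the 7 called IGF genes, Igfbp5 was called in all 23 alternatives, and every call of the other 6 held with each single library left out. The number called ran from 7 to 10 (6 to 9 lower, 1 higher) with a library left out, was 8 under each of the other 3 scalings and with sex as a covariate, and was 6 without both vSSC replicates 1 and 3. After adjustment for each library's ribosomal share 3 were called (Igfbp2, Igfbp5 and Igfbp7, 2 of them lower), 624 genes over the table and 9 in the pathway lists, and the differences of Igf1r (0.059), Igf2r (0.34) and Plagl1 (0.19) turned positive. The cause was not tested. In the female libraries alone 1 IGF gene was called (1 lower, 0 higher), with 735 genes and 10 list genes, and in the male libraries alone 6 IGF genes (5 lower, 1 higher), 568 genes and 8 list genes; these fits hold 2 libraries a group. At an FPKM of at least 5, Igfbp2 and other low genes go untested and 0 IGF genes were called higher.

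Over all genes the site count of 2518 was 1095 without both vSSC replicates 1 and 3 (11 list genes), and ran from 1534 to 2991 with a library left out, with 15 to 29 list genes. Leaving out vSSC replicate 1 gave 1673 calls, vSSC replicate 3 gave 1646, lbSSC replicate 3 gave 1534 (15 list genes) and lbSSC replicate 4 gave 1589. Of the site calls 60.9% were higher in vSSC, against 49.4% after quantile normalization and 42.4% after rescaling to one sum. The sex count of 5 was 3 at an FPKM of at least 5 and 13 with library weights. The interaction count was 0 to 1 with a library left out. Same-numbered libraries did not all deviate together (correlations 0.26, -0.09, -0.06 and 0.44), and not every library correlated best with its own number, so the numbers were not taken to pair them. With a replicate block 9 IGF genes were called, 8 lower and 1 higher, with Igf1r (adjusted p = 0.0364) and Igf2r (0.0321) added, and 3194 genes in all. No gene name of the 10 repeats, so summing rows gave nothing to compare. Without read totals, depth cannot bound the error of low values such as those of Stc1.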
